A study of Mus musculus with 6 samples.

Results

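Expression of 10 genes of the marrow adipocyte, the fat cell of bone marrow, was examined in sorted cells labelled osteoblastic, from mice with leukemia. They were Adipoq, Lpl, Pparg, Fabp4, Plin1, Cfd, Pnpla2, Apoe, Gpd1 and Cidec. The genes were taken as a list by name. Of the 10, 9 had a probe set paired with that symbol alone and are described here out of 22180 genes tested, and Cfd was not analysed. RNA of 1 sample was hybridised to each of 6 Affymetrix arrays, 3 from mice with acute myeloid leukemia (AML) and 3 from mice with chronic myeloid leukemia (CML). All 6 samples carry the Col2.3 GFP genotype, a green fluorescent reporter driven by a piece of the Col1a1 promoter that is active in cells of the osteoblast lineage, and the labels give the cell type as osteoblastic cells and the tissue as bone marrow. Age, strain, the way each leukemia was induced and the number of mice per sample are not given in the sources used here, and no sample from a mouse without leukemia is among the 6. The titles call the samples stromal cells. They place 3 arrays in each leukemia while the source field reads CML for every sample, so each direction below rests on the titles. Whether each sample is a mouse of its own is not stated, and the p-values therefore speak only of how far these 6 samples spread, which may be technical variation.

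Adipocytes and osteoblasts arise from common mesenchymal progenitors of the marrow. Commitment to fat is driven by the nuclear receptor PPARG together with C/EBP factors, which switch on the genes for fatty acid uptake, triglyceride storage in a coated lipid droplet, regulated lipolysis and hormone secretion. Several of these genes are also used outside fat: lipoprotein lipase, apolipoprotein E and FABP4 are made by macrophages, FABP4 also by capillary endothelium, and PNPLA2 by most tissues that burn stored fat.

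Values are log2 of the deposited probe set intensity, and changes are AML minus CML. The files used here hold no detection call, so the signal of each gene was set against the 1091 probe sets of olfactory receptor genes, for which no signal is expected in marrow. The 95th percentile of those probe sets, called the dim level, was 4.39, 4.55 and 4.30 on AML 1, 2 and 3 and 4.95, 4.72 and 5.09 on CML 1, 2 and 3. It is a description of brightness and not a detection test, and it was lower on the AML arrays. Of the 9 measured genes, 2 lay above the dim level on all 6 arrays (Pnpla2 and Apoe), 3 lay at or under it on all 6 (Adipoq, Pparg and Cidec), and 4 lay above it on some arrays (Lpl, Fabp4, Plin1 and Gpd1). Among all genes tested, 33.2% were above it on all 6 arrays and 43.6% on 0. Adipoq, Pparg and Cidec thus did not exceed the brightest olfactory receptor probe sets on any array. Plin1 lay above the dim level on 2 AML arrays, and Fabp4 on 2 AML and 2 CML arrays. Of the 8 measured osteoblast markers 6 lay above it on all 6 arrays, and Col1a1, the main collagen of bone, averaged 8.59 ± 1.3 in AML, against 10.30 ± 1.62 in CML (SD, n = 3 each).

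**Figure D1:**
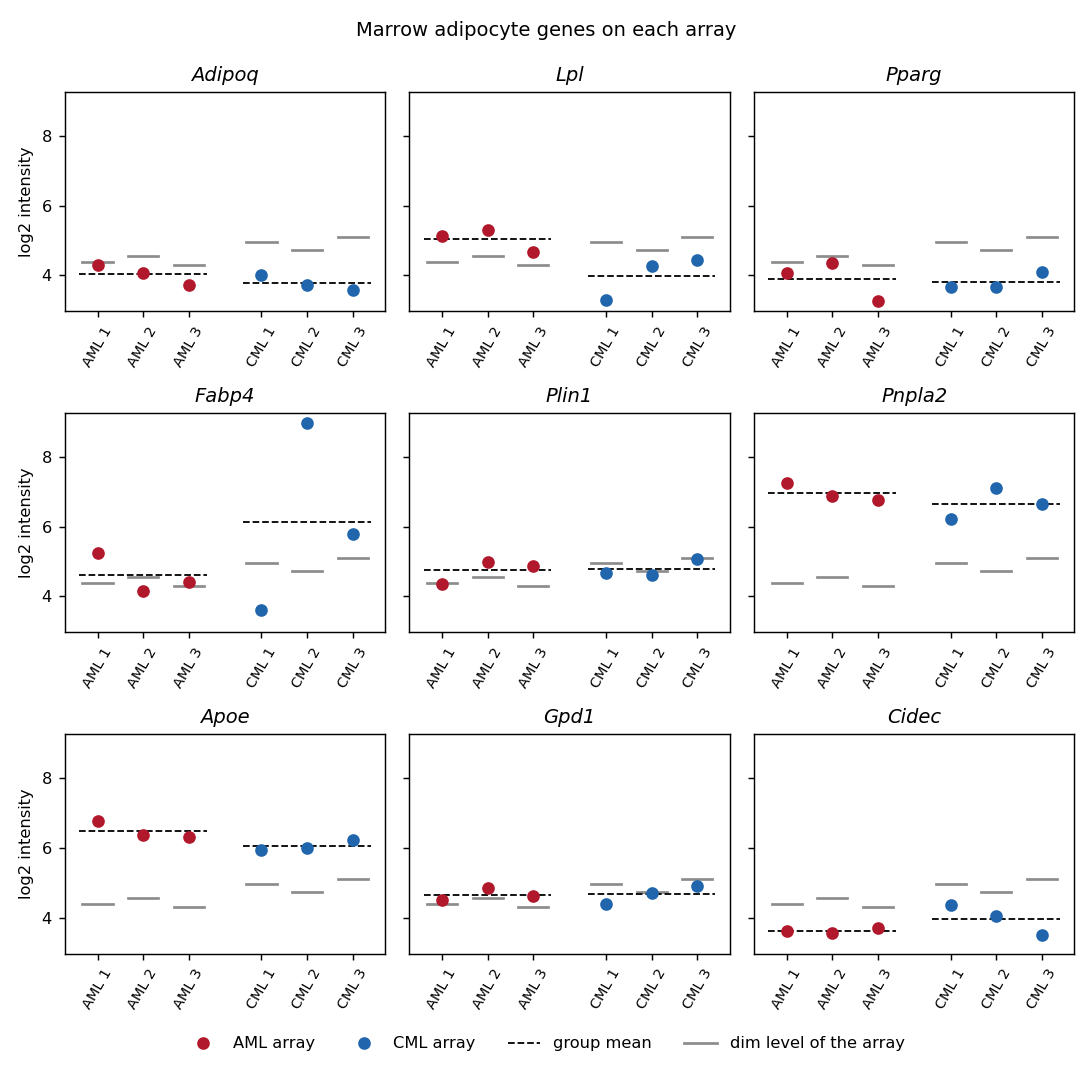
Log2 intensity (vertical axis) of the 9 measured genes on the 3 AML arrays (red) and the 3 CML arrays (blue). Each point is 1 array, dashed lines are group means and grey bars are the dim level of that array. Pnpla2 and Apoe lie above the grey bars on every array, Adipoq, Pparg and Cidec lie at or under them, and Fabp4 reaches 8.97 on CML 2 alone.

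The promoters of the genes at the ends of this range were looked up in RefSeq windows of 300 bases, from 250 before to 50 after a transcript start, in assembly GRCm38.p6. The table held 12 windows for 7 of the 10 genes. The 3 sequences below are shown because they set the promoter of Pnpla2, above the dim level on every array, beside those of Adipoq, at or under it on every array, and of Plin1, close to it. Capitals mark CG pairs and matches to TTGCNNAA, a core recognised by C/EBP factors, on either strand.
Pnpla2, chr7:141454938-141455237, plus strand: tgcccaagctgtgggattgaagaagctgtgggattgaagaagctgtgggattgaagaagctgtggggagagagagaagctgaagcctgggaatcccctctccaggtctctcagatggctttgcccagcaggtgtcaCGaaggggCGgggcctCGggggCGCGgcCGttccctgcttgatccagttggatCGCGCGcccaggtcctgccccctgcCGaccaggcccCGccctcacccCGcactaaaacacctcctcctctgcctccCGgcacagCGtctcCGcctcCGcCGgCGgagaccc
Adipoq, chr16:23146286-23146585, plus strand: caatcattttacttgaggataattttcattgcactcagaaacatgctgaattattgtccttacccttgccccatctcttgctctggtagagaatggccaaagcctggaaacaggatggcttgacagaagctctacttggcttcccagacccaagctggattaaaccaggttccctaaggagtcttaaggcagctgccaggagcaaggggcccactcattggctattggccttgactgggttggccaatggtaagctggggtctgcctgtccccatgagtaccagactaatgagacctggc
Plin1, chr7:79732727-79733026, minus strand: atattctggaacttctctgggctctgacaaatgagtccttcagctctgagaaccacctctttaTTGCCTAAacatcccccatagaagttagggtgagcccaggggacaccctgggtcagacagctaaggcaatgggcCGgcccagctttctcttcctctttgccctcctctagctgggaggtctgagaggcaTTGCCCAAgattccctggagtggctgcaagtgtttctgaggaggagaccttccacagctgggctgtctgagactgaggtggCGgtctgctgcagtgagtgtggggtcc

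The Pnpla2 window held 18 CG pairs, the Plin1 window 2 and the Adipoq window 0. Over all 32851 windows of the table the median was 7 CG pairs, 29.7% held 18 or more and 5.43% held 0. The windows of Apoe held 10 to 12 and those of Cidec 6 and 7. The 3 windows of Pparg, which has several start sites, ran from 2 to 44, so a gene at or under the dim level can also have a CG-rich window. TTGCNNAA matched in 3 of the 12 windows, of Plin1 (2 matches), Cidec (1 match) and Pparg (2 matches), against 10.8% of all windows. The PPARG and RXR element, a pair of AGGTCA repeats in the same direction with 1 base between them, matched in 0 of the 12 windows and in 0.0396% of all windows, and the single AGGTCA, which is part of it, matched in 2 windows, both of Pparg, against 16.3% of all. These matches describe the letters of the windows and nothing was drawn from them about binding.

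By limma, 0 of the 9 measured genes had an adjusted p under 0.05, in a comparison in which 1.91% of all genes did (1.83% higher and 0.0812% lower in AML). At an unadjusted p under 0.05 there were 2, Lpl and Apoe, against 21.5% of all genes. The same 2 genes had AML arrays that were all higher than all CML arrays, which held for 13.3% of all genes, and 0 had AML arrays that were all lower, against 17.9% of all genes (31.3% in either direction). By value 5 of the 9 were higher in AML and 4 lower. Their median change was 0.08, beside -0.11 over all genes tested. The median was -0.10 without AML 2 and 0.39 without AML 3, so the arrays left in decided its size and sign.

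**Figure D2:**
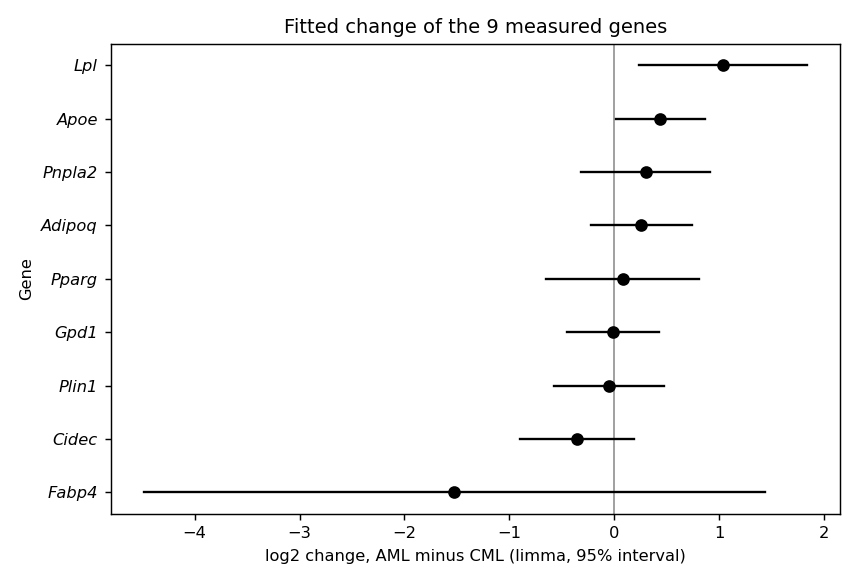
Fitted log2 change, AML minus CML (horizontal axis), for each of the 9 measured genes, with the 95% interval of limma. The intervals of Lpl and Apoe lie above 0, none of the 9 passed after adjustment over all genes, and the interval of Fabp4 is the widest, from -4.49 to 1.44.

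Pparg, the nuclear receptor that directs adipogenesis, had 4.07, 4.36 and 3.26 on AML 1, 2 and 3, against 3.68, 3.67 and 4.10 on CML 1, 2 and 3. The AML arrays held both its highest and its lowest value, the groups overlapped, and all 6 values were under the dim level. The change was 0.08 ± 0.30 (SE), with an interval from -0.65 to 0.81 (limma adjusted p = 0.880). It turned to -0.008 without AML 1 and to -0.15 without AML 2.

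The secreted proteins of the list are adiponectin, apolipoprotein E and complement factor D, the product of Cfd. Adipoq, which encodes the hormone adiponectin, had 4.30, 4.07 and 3.72 on AML 1, 2 and 3, against 4.0, 3.72 and 3.59 on CML 1, 2 and 3. CML 1 was higher than AML 3, so the groups overlapped, and all 6 values lay under the dim level. The change was 0.26 ± 0.20 (SE), with an interval from -0.22 to 0.74 (limma adjusted p = 0.442). It was 0.13 without AML 1, 0.42 without AML 3 and 0.48 after cyclic loess.

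Apoe, the ligand that carries lipoproteins to their receptors, had 6.77, 6.37 and 6.31 on AML 1, 2 and 3, against 5.93, 6.0 and 6.21 on CML 1, 2 and 3. All 3 AML arrays were higher than all 3 CML arrays, though AML 3 and CML 3 differed by little. Means were 6.48 ± 0.25 in AML, against 6.05 ± 0.15 in CML (SD, n = 3 each), a value 1.36-fold higher in AML that did not pass (limma adjusted p = 0.221). The log2 change was 0.44 ± 0.18 (SE) with an interval from 0.01 to 0.86. It was 0.22 after quantile normalization and 0.23 after cyclic loess, and 0.30 without AML 1. Apoc2, the cofactor that activates lipoprotein lipase and a neighbour of Apoe on chromosome 7, rose in AML, with 8.08, 8.26 and 7.29 on AML 1, 2 and 3 against 4.93, 5.54 and 5.65 on CML 1, 2 and 3 (limma adjusted p = 0.0266). Its log2 change was 2.51 ± 0.31 (SE), while Apoc1, another apolipoprotein gene of the same cluster, lay under the dim level on all 6 arrays and differed by 0.16 ± 0.17 (SE; limma adjusted p = 0.562).

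Lpl, the lipase that frees fatty acids from circulating triglyceride, had the largest positive change of the 9 genes. It had 5.13, 5.29 and 4.66 on AML 1, 2 and 3, against 3.28, 4.25 and 4.43 on CML 1, 2 and 3. All AML arrays were higher than all CML arrays, and CML 1 was well under the other CML arrays. The AML values were above the dim level of their arrays and the CML values under it. With the CML values set to the dim level, the AML mean was 1.08-fold higher. This figure depends on the percentile chosen, since CML 2 and CML 3 exceeded the 90th percentile of their arrays, 4.10 and 4.20. The measured means were 5.03 ± 0.33 in AML, against 3.99 ± 0.62 in CML (SD, n = 3 each), and the fitted change of 1.04 ± 0.34 did not pass (SE; limma adjusted p = 0.161). The change was 0.69 without CML 1 and 0.59 with a pseudocount of 16. The other probe set of Lpl gave 5.08, 5.41 and 4.17 on AML 1, 2 and 3, against 3.73, 3.98 and 4.11 on CML 1, 2 and 3, a change of 0.95 ± 0.32 (SE). AML 3 lay under the dim level on this probe set, and with the CML values set to the dim level the AML mean was 0.974-fold the CML mean. On both probe sets AML 3 was the lowest AML array and CML 1 the lowest CML array.

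Fabp4, the fatty acid carrier of adipocytes also called aP2, varied more between arrays than any other gene of the 9. It had 5.25, 4.16 and 4.42 on AML 1, 2 and 3, against 3.62, 8.97 and 5.80 on CML 1, 2 and 3. CML 2 lay 3.17 above the next CML array, CML 1 was the lowest of all 6, and the groups overlapped. Means were 4.61 ± 0.57 in AML, against 6.13 ± 2.69 in CML (SD, n = 3 each), and the change of -1.52 ± 1.24 did not pass (SE; limma adjusted p = 0.460). Without CML 2 it was -0.10 and without CML 1 it was -2.78, so single CML arrays decided the value. Among all 22180 genes, only 3 had a larger gap between CML 2 and the next CML array, namely Pyy, Tph1 and 4930594O21Rik, which were looked up after the values were seen. On the other 8 genes, CML 2 was the highest array of none.

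Other carriers of fatty acids were compared with Fabp4 on the same arrays. Cd36, a fatty acid translocase of fat cells, macrophages and red cell precursors among others, had 3.38, 3.47 and 3.77 on AML 1, 2 and 3, against 4.34, 6.37 and 6.40 on CML 1, 2 and 3. The AML arrays were all lower than the CML arrays and under the dim level, and CML 2 and CML 3 were alike, unlike Fabp4. CML 1 was under the dim level too, so the size of the difference is uncertain, and the fitted change of -2.16 ± 0.55 did not pass (SE; limma adjusted p = 0.107). Fabp5, the epidermal fatty acid carrier, was named after its values were seen and had 7.03, 9.80 and 10.75 on AML 1, 2 and 3, against 9.62, 11.34 and 9.90 on CML 1, 2 and 3. CML 2 was its highest array, as on each of its other 3 probe sets. Red cell genes were also highest on CML 2: Slc4a1, the anion exchanger band 3, had 4.89, 8.68 and 10.26 on AML 1, 2 and 3, against 9.83, 11.16 and 10.75 on CML 1, 2 and 3. The mean centred value of the 3 measured erythroid genes was 1.89 on CML 2 and from -0.06 to 1.34 on the other CML arrays, with -3.04 to 0.86 on the AML arrays. Pan-haematopoietic markers were lowest on CML 2, at -1.63. Endothelial markers stood at -0.14 on CML 2, within their range on the other 5 arrays, which ran from -0.14 to 0.19. Of the 10, Kdr, Tek, Emcn, Stab2 and Tie1 were under the dim level on all 6 arrays and Eng was above it on all 6. Pecam1, Cdh5, Flt4 and Vwf lay above it on some arrays. The part of red cells, other blood cells and endothelium in the Fabp4 value was not tested.

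**Figure D3:**
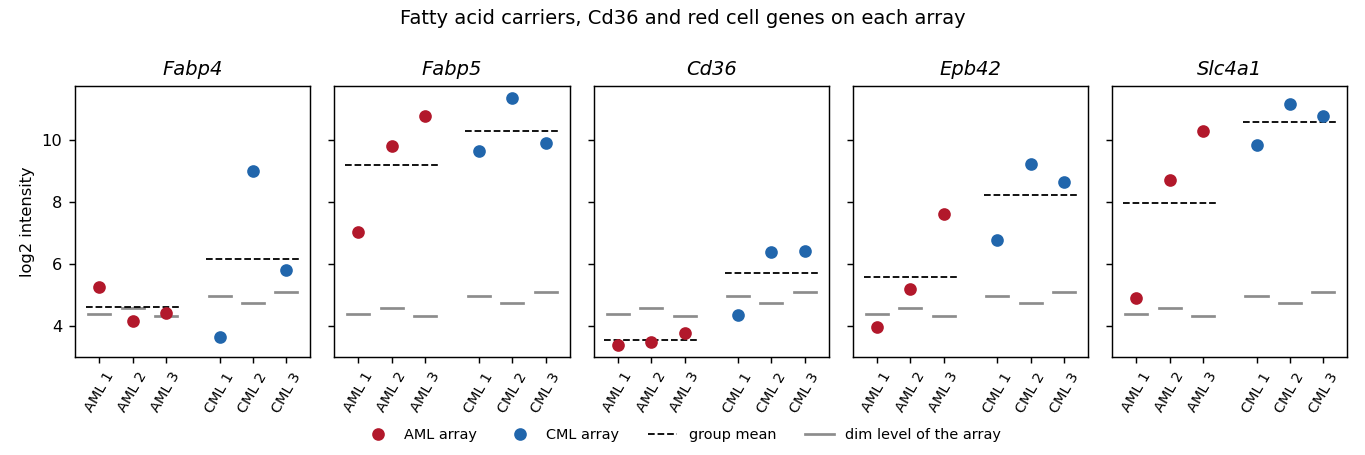
Log2 intensity (vertical axis) of Fabp4, Fabp5, Cd36 and the red cell genes Epb42 and Slc4a1 on the 3 AML (red) and 3 CML arrays (blue), with group means (dashed) and dim levels (grey). Fabp4 stands at 8.97 on CML 2 and at 5.80 or less elsewhere, whereas Cd36 is level on CML 2 and CML 3.

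Plin1 and Cidec encode proteins of the lipid droplet surface, perilipin 1, which guards the stored triglyceride, and CIDEC, which fuses droplets. Plin1 had 4.37, 4.99 and 4.88 on AML 1, 2 and 3, against 4.69, 4.62 and 5.07 on CML 1, 2 and 3. The groups overlapped around the dim level, and the change was -0.05 ± 0.22 (SE; interval from -0.57 to 0.48; limma adjusted p = 0.904), which turned to between 0.03 and 0.10 under the other 3 scalings. Cidec had 3.60, 3.57 and 3.69 on AML 1, 2 and 3, against 4.37, 4.04 and 3.51 on CML 1, 2 and 3. It was under the dim level on every array, with CML 3 the lowest of the 6, and its change was -0.35 ± 0.23 (SE; interval from -0.90 to 0.19; limma adjusted p = 0.372). The change of Cidec was -0.16 without CML 1 and -0.58 without CML 3.

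Of 11 measured lipid droplet genes, Plin1 and Cidec included, 0 passed in limma, 2 had an unadjusted p under 0.05, and the median change was -0.11. These 2 were genes that are not restricted to fat. Bscl2, which encodes the droplet assembly protein seipin, had 7.31, 7.69 and 7.29 on AML 1, 2 and 3, against 5.10, 6.50 and 5.91 on CML 1, 2 and 3 (limma adjusted p = 0.0775). Plin2, the droplet coat of most cell types, had 8.12, 7.26 and 6.78 on AML 1, 2 and 3, against 6.35, 6.06 and 5.76 on CML 1, 2 and 3 (limma adjusted p = 0.116). Both had AML arrays above all CML arrays, with changes of 1.60 ± 0.35 for Bscl2 and 1.33 ± 0.35 for Plin2 (SE). The coat genes of fat and muscle, Plin4, Plin5 and Cidea, differed by -0.38, -0.32 and -0.37 without passing. AML arrays were all lower than CML arrays for each, as for 17.9% of all genes. Plin5 and Cidea lay under the dim level on every array.

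Pnpla2 and Gpd1 encode enzymes at opposite ends of triglyceride turnover. Pnpla2, the adipose triglyceride lipase that starts lipolysis, had 7.24, 6.87 and 6.77 on AML 1, 2 and 3, against 6.22, 7.11 and 6.65 on CML 1, 2 and 3. CML 2 lay within the AML range, so the groups overlapped. Means were 6.96 ± 0.25 in AML, against 6.66 ± 0.45 in CML (SD, n = 3 each), 1.23-fold higher by value in AML, and did not pass (limma adjusted p = 0.487). The log2 change of 0.30 ± 0.26 (SE; interval from -0.32 to 0.92) was 0.08 without CML 1 and 0.53 without CML 2. It was 0.01 after cyclic loess, 0.07 after quantile normalization and 0.45 after median centring. Gpd1, the cytosolic dehydrogenase that makes glycerol 3-phosphate for triglyceride, had 4.52, 4.84 and 4.62 on AML 1, 2 and 3, against 4.38, 4.72 and 4.90 on CML 1, 2 and 3. The groups overlapped and the change was -0.007 ± 0.18 (SE; interval from -0.45 to 0.43; limma adjusted p = 0.983), which turned to between 0.09 and 0.14 under the other 3 scalings. Its other probe set, under the dim level throughout, gave -0.42 ± 0.20 (SE; limma adjusted p = 0.272), with 3.25, 3.74 and 3.46 on AML 1, 2 and 3 against 3.70, 3.80 and 4.20 on CML 1, 2 and 3.

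The other genes of lipolysis and triglyceride synthesis were given from whole lists. Of 7 lipolysis genes, 0 passed in limma and 1 had an unadjusted p under 0.05. This was Abhd5, the co-activator of PNPLA2, with 8.86, 8.29 and 8.19 on AML 1, 2 and 3, against 6.52, 7.97 and 6.78 on CML 1, 2 and 3. Its AML arrays were all higher, and the change of 1.36 ± 0.40 did not pass (SE; limma adjusted p = 0.138). The next by p, G0s2, a peptide inhibitor of PNPLA2, differed by 0.69 ± 0.35 (SE; limma adjusted p = 0.288). Lipe, the hormone-sensitive lipase, differed by 0.34 and Mgll, which cleaves monoacylglycerol, by -0.20.

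Of 10 genes of triglyceride and glycerol synthesis, 2 rose in AML and 0 fell, with a list median of -0.19. Dgat1, which adds the last fatty acid to triglyceride, had 8.08, 7.57 and 7.02 on AML 1, 2 and 3, against 5.64, 5.86 and 6.13 on CML 1, 2 and 3 (limma adjusted p = 0.0470). Gpd2, the mitochondrial partner of Gpd1, had 6.75, 6.73 and 6.81 on AML 1, 2 and 3, against 5.71, 5.89 and 5.70 on CML 1, 2 and 3 (limma adjusted p = 0.0298). Neither gene had overlapping groups, and the changes were 1.68 ± 0.29 for Dgat1 and 1.0 ± 0.13 for Gpd2 (SE). Agpat2, an acyltransferase needed for fat storage, differed by 1.70 ± 0.33 with no overlap (SE; limma adjusted p = 0.0623). Dgat2, Pck1 and Aqp7, which are abundant in fat, stood at -0.11, -0.31 and -0.30.

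Of 14 adipogenic transcription factors, Cebpd rose in AML and 0 fell, with a list median of 0.04. Cebpd, an early C/EBP factor of adipogenesis and of the inflammatory response, had 7.25, 6.93 and 6.67 on AML 1, 2 and 3, against 4.74, 4.97 and 5.29 on CML 1, 2 and 3 (limma adjusted p = 0.0222). The groups were far apart, with a change of 1.95 ± 0.22 (SE). Cebpa and Cebpb, which act also in myeloid cells, were 0.96 ± 0.22 and 0.47 ± 0.18 higher by value (SE; limma adjusted p = 0.0839 and 0.204). Of the 14, 7 were under the dim level on all 6 arrays, among them Pparg, Klf15, Zfp423 and Ppargc1a. Ebf1, used by adipocyte and B cell precursors, had 4.43, 5.89 and 4.03 on AML 1, 2 and 3, against 8.65, 4.61 and 6.36 on CML 1, 2 and 3. CML 1 and CML 2 differed by 4.04, the groups overlapped, and the change of -1.76 ± 1.01 did not pass (SE; limma adjusted p = 0.332).

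Among 10 adipokines and secreted factors, Hp rose in AML and 0 fell, with a list median of 0.10. Hp, which encodes haptoglobin and is made by fat, liver and granulocyte precursors, had 11.36, 10.92 and 10.16 on AML 1, 2 and 3, against 7.92, 7.30 and 8.69 on CML 1, 2 and 3 (limma adjusted p = 0.0368). Its groups did not overlap and the change was 2.84 ± 0.43 (SE). Lep, the hormone leptin, lay under the dim level on all 6 arrays, and Retn, the hormone resistin, differed by -0.07 ± 0.14 (SE; limma adjusted p = 0.766). Among 9 genes of apolipoproteins and cholesterol efflux, Apoc2 rose and 0 fell, with a median of 0.16.

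Of 10 genes of fatty acid uptake and of 9 of de novo lipogenesis, 0 passed in limma, with medians of -0.24 and -0.20, and 3 of each had an unadjusted p under 0.05. After Cd36, the lowest p in the uptake list was that of Vldlr, a lipoprotein receptor under the dim level on all arrays, at -0.59 ± 0.17 (SE; limma adjusted p = 0.135). Among the lipogenic genes, Fasn, the fatty acid synthase, was 1.04 ± 0.26 higher and Acly, which supplies its acetyl-CoA, 0.70 ± 0.21 higher by value (SE; limma adjusted p = 0.107 and 0.137). Scd1, the other of the 3, went the other way, at -2.12 ± 0.76 (SE; limma adjusted p = 0.191). It had 4.56, 4.83 and 3.55 on AML 1, 2 and 3, against 8.04, 4.97 and 6.28 on CML 1, 2 and 3. Of 8 genes of brown and beige fat, 0 passed, 0 had an unadjusted p under 0.05 and 0 lay above the dim level on all 6 arrays. Of 13 genes of adipogenic stromal and perivascular cells, 0 passed and 0 had an unadjusted p under 0.05, with a median of 0.005. Cxcl12, the chemokine that these cells use to hold stem cells, was above the dim level on all 6 arrays, while Lepr, their leptin receptor, was under it on all 6.

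**Figure D4:**
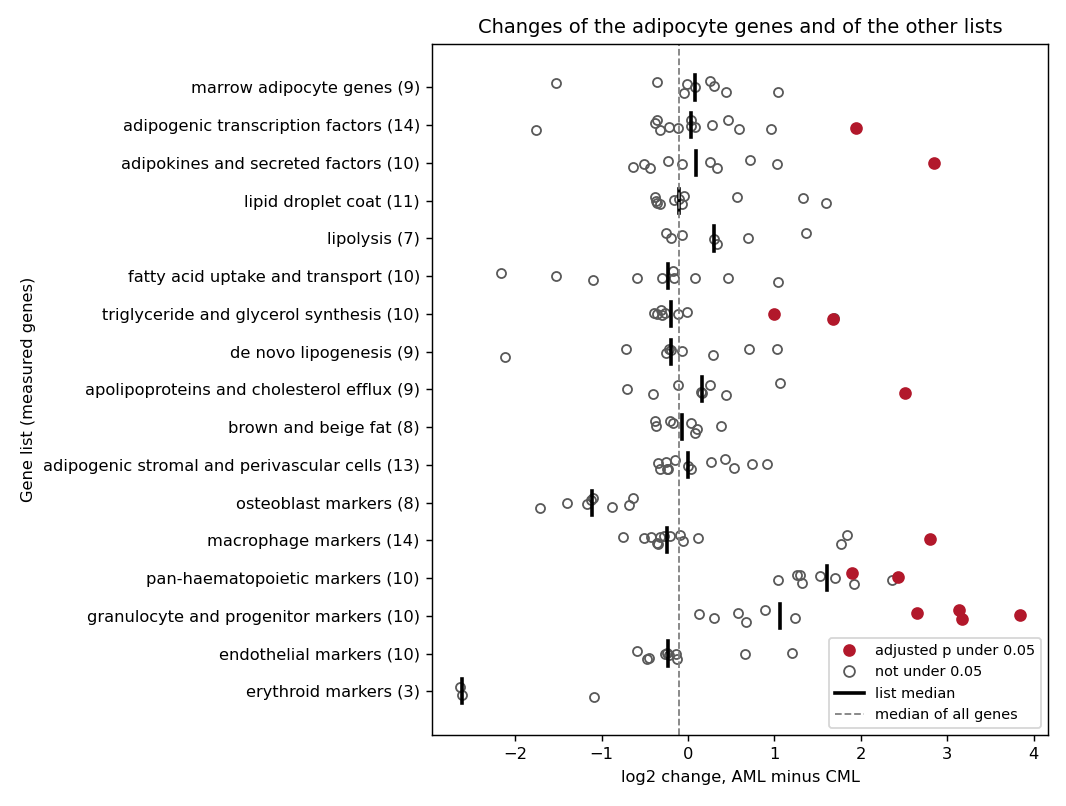
Log2 change, AML minus CML (horizontal axis), of every measured gene in each list (rows, with the number measured). Filled points passed an adjusted p of 0.05 in limma, black bars are list medians and the dashed line is the median of all genes, -0.11. No point is filled among the marrow adipocyte genes, and the median of that list is 0.08, against 1.61 for pan-haematopoietic markers.

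The 5 genes that rose in the lists drawn up around fat cells were Cebpd, Hp, Gpd2, Dgat1 and Apoc2, with Hp from the list of secreted factors. Pan-haematopoietic and granulocyte markers were also higher by value in AML, as were most of the genes called. Erythroid markers, with 3 of 8 measured, went the other way, with a median of -2.62, and 0 passed in limma. Of 10 pan-haematopoietic markers 2 rose, Vav1 and Ptpn6, 0 fell and all were higher by value, with mean centred values from 0.33 to 1.12 on the AML arrays and from -1.63 to 0.15 on the CML arrays. Of 10 granulocyte and progenitor markers 4 rose (Elane, Mpo, Prtn3 and Ctsg), with mean centred values from 0.42 to 1.09 on the AML arrays and from -1.44 to -0.30 on the CML arrays. Within CML the pan-haematopoietic value was highest on CML 1, where Cebpd, Dgat1 and Apoc2 were at their lowest. Hp was lowest on CML 2, where that value was also lowest, and Gpd2 was lowest on CML 3. The granulocyte and progenitor value was highest within CML on CML 3, at -0.30. There Cebpd, Dgat1, Apoc2 and Hp were at their highest of the CML arrays and Gpd2 at its lowest. The part of blood cells in the 5 rises was not tested. In bulk RNA of this kind, fewer cells of a type and less RNA per cell cannot be told apart. The calls also rest on few arrays: without AML 1, without AML 2 and without CML 3, 0 of all genes passed in limma, with 3048, 3750 and 3533 at an unadjusted p under 0.05. Of the 6 fits that left out 1 array, Cebpd and Apoc2 passed in 3 each, Gpd2 in 2, and Hp and Dgat1 in 1 each. Of the other 3 scalings, Cebpd passed in 2 and Apoc2, Gpd2, Hp and Dgat1 in 1 each.

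Macrophages make Lpl, Apoe and Fabp4, and their markers did not move as 1 group. Of 14 macrophage markers, Cd68, a lysosomal glycoprotein shared with other myeloid cells, rose by 2.80 ± 0.49 (SE; limma adjusted p = 0.0477) and 0 fell. Csf1r and Adgre1, the receptor of CSF1 and the F4/80 antigen, were 1.77 ± 0.36 and 1.84 ± 0.77 higher by value (SE; limma adjusted p = 0.0659 and 0.233). The complement genes C1qa and C1qb of resident macrophages were lower by value, at -0.36 and -0.75, and Mrc1, Spic, Siglec1, Timd4 and Cd5l lay under the dim level on all 6 arrays. The mean centred value of the 14 markers ran from -0.18 to 0.28 on the AML arrays and from -0.19 to -0.07 on the CML arrays. Their part in the Lpl and Apoe values was not tested.

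Osteoblast markers, with 8 of 10 measured, were all lower by value in AML, with a median of -1.11, and 0 passed in limma or had an unadjusted p under 0.05. Their mean centred value was 1.99 on CML 3, from -0.64 to 0.28 on the other CML arrays, and from -1.22 to 0.32 on the AML arrays. On CML 3, Plin1 and Gpd1 were the only ones of the 9 adipocyte genes at their highest value, 5.07 and 4.90, both under the dim level there.

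For the 2 genes above the dim level on every array, the genes with the most similar pattern were taken by the mean absolute difference of centred log2 values over the 6 arrays, among 17429 other genes. For Pnpla2 they were Kdm6b, Mospd1 and Stx5a, at 0.0648, 0.0712 and 0.0717. For Apoe they were Gnpda2, Timm10b and Msantd4, at 0.0382, 0.0385 and 0.0519. Their changes ran from 0.18 for Stx5a to 0.54 for Msantd4, near those of their partners because the choice used the same 6 arrays. None passed in limma, with adjusted p from 0.172 to 0.639.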

How the data were processed

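Total RNA of each sorted sample was hybridised to an Affymetrix array of its own, per the labels. The deposited values are probe set intensity on a linear scale, from 2.71 to 8583, as judged from their range. Of tools, limma and lumi are named in the submitters' processing notes. Background correction, summarization, normalization and genome build are not given in the sources used here. Median intensity was 17.2 to 17.8 on AML arrays and 18.6 to 20.4 on CML arrays. Arrays have no read depth, and their number limits the precision.

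The platform annotation gave 23521 of 39721 probe sets a single symbol, 1814 several and 14386 none. Those with a single symbol were used, and 23328 of them were found by Entrez number in a RefSeq table of GRCm38.p6, which changed 0 names. A gene with several probe sets was represented by the brightest one on average. The log2 intensity (floor 1, reached by 0 values) of 22180 genes entered lmFit and eBayes of limma 3.58.1 (R 4.3.3) with no covariate or filter. Tests were two-sided, p-values were adjusted over all genes by Benjamini-Hochberg, and SE and 95% intervals are the moderated ones. Arrays were simulated for AML against CML with 22180 genes, using normal noise independent between genes and no difference shared by an array. On these, limma called 30.0%, 72.0%, 82.0% and 100.0% of genes changed by 1, 2, 3 and 4 on the log2 scale. There were 7 false calls, and these figures hold for that setting only.

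The adipocyte genes and all lists were chosen with earlier results of these data known. Named genes were the adipocyte genes, list genes past the threshold or else the 2 lowest by p, and genes of the transcription factor, droplet and macrophage lists. Others, such as Fabp5, Lipe, Mgll, Lep, Retn, Dgat2, Pck1, Aqp7, Agpat2, Apoc1, Scd1, Cxcl12 and Lepr, were named after their values were seen. A mean centred value is the average, over the genes listed, of log2 intensity minus that gene's mean of 6 arrays. The alternatives covered scaling (quantile, median centring, cyclic loess), the upper 50% of genes by mean, a pseudocount of 16, other probe set rules, trend and robust options, array weights, the replicate number as a block, and leaving out arrays singly. An Xist covariate and other dim levels were added after the data were seen. Figures were drawn with matplotlib 3.10.9.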

Additional observations from a re-analysis of the deposited data

How the results depend on the processing

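None of the 9 measured genes passed in limma under any of 17 alternatives, with adjusted p from 0.107 to 0.999 over 149 values, of which 14 had turned sign. Gpd1 turned to 0.0905, 0.142 and 0.136 and Plin1 to 0.0295, 0.102 and 0.0749 under quantile normalization, median centring and cyclic loess. With 1 array left out Gpd1 ran from -0.15 to 0.11, Plin1 from -0.17 to 0.14 and Pparg from -0.15 to 0.40. The median change of the 9 was 0.23 after median centring and from -0.10 to 0.39 with 1 array left out, and -0.007 among the 5 genes in the upper 50% by mean. The median of all genes moved from -0.11 to 0.04 after median centring and to -0.007 after cyclic loess. Over all genes 423 passed, against 93 after quantile normalization, 64 after cyclic loess, 896 after median centring, 232 with a pseudocount of 16, 639 with array weights, 51 with the Xist level as a covariate, and from 0 to 438 with 1 array left out. With the replicate block 0 passed, with 3711 at an unadjusted p under 0.05 in limma. Same-numbered arrays did not deviate together (r = 0.24, -0.30 and -0.25 for numbers 1, 2 and 3, across genes), so the numbers were not taken as pairs. The highest r of deviations was 0.47, for AML 3 with CML 2. Across probe sets CML 2 had r = 0.935 with AML 3, against 0.906 with CML 1 and 0.931 with CML 3. The causes were not tested. With the dim level at the 90th percentile 4 of the 9 genes lay above it on every array, and at the 99th 0 did, against 2 as reported.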

Other observations

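On CML 2, the array on which Fabp4 stood at 8.97, the largest gaps to the next CML array belonged to Pyy, which encodes the gut hormone peptide YY, and Tph1, which encodes the serotonin-synthesizing enzyme of non-neuronal cells. Pyy had 3.20, 3.61 and 2.83 on AML 1, 2 and 3, against 3.68, 8.91 and 4.86 on CML 1, 2 and 3. Tph1 had 3.26, 3.51 and 3.46 on AML 1, 2 and 3, against 3.47, 7.98 and 4.03 on CML 1, 2 and 3. Il1r1, the interleukin 1 receptor, followed Fabp4 with 7.35 on CML 2 and 4.18 or less on the other 5 arrays. For Pyy, Tph1, Fabp4 and Il1r1 the gap to the next of all 6 arrays was 4.06, 3.95, 3.17 and 3.17. These genes were picked for their values, and no test was made of them.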
